A study of Rattus norvegicus with 244 samples.

Results

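The injured raphe at 4 h after a moderate spinal cord injury was compared with the injured raphe at every later time. The samples were chosen by their titles: 3 samples at 4 h (replicates 2, 3 and 4) against 20 samples, 4 at each of 24 h, 7 d, 14 d, 28 d and 3 months, so 23 of the 84 samples of the series. The remaining sample at 4 h, replicate 1, was set aside because its actin control probe sets showed degraded RNA. Rats in all of these groups had been operated on and had received the moderate injury. To see what the operation alone did, 2 samples of rats at 4 h after a laminectomy (removal of vertebral bone without cord injury, called sham) were used. The labels name the source of the injured samples as rat raphe and that of the sham samples as rat raphe magno, and they give no strain, sex or age. Whether each sample came from its own animal is not stated either, so the p-values measure the spread between these samples, which may be technical. Each of these samples was run on 3 array types, called A, B and C here, which carry different probe sets.

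The raphe of the brainstem holds serotonin neurons, some of which project to the spinal cord. Surgery and trauma release glucocorticoid hormone, which enters the brain and binds the glucocorticoid receptor, a transcription factor. Fkbp5, a co-chaperone that lowers the affinity of that receptor for its hormone, is among its best known target genes, and its transcript is often used as a readout of recent exposure.

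The tissue was checked against region markers. Summed as the mean log2 signal over the list, 14 tested brainstem markers lay between 9.56 and 9.82 in the 4 h samples and between 9.10 and 9.90 in the later ones, against 6.93 to 7.46 in injured cortex samples. The 9 tested forebrain markers lay between 9.43 and 9.67 at 4 h, against 12.44 to 12.90 in cortex. Slc6a4, the serotonin transporter, had signals of 1010, 898 and 1180 at 4 h and 773 to 1689 (median 1142) later, so serotonin neurons were represented on both sides. RNA integrity was not equal. The ratio of actin signal at the 3' end to that at the 5' end, which grows as RNA breaks down, was 1.26-fold higher at 4 h than later (log2 difference 0.34 over the mean of the 3 array types, exact two-sided permutation test, p = 0.0198, n = 3 and 20, smallest possible p = 0.000565). On type A it ran from 1.21 to 2.42 at 4 h, from 1.05 to 1.85 later and from 1.42 to 1.45 in the sham samples. Over the 3 types the ratio was 2.59, 1.90 and 1.40 in replicates 2, 3 and 4 at 4 h and 1.29 to 1.82 later, so replicates 2 and 3 lay above every later sample.

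Fkbp5 led the rises at 4 h. On array type C (probe set rc_AI111960_at) its signal was 1352, 310.0 and 994 in replicates 2, 3 and 4. In the later injured samples it ran from 18.8 to 362 with a median of 190.8. The lowest 4 h sample lay inside the later range, and the other 2 lay above all 20 later samples. On the scale used for every test, log2 of the signal plus 32, Fkbp5 was 2.00 ± 0.37 higher at 4 h than the mean of the 5 later groups (difference ± SE, limma, adjusted p = 0.0362, n = 3 and 20, 3 of 3 samples above the later mean). This is a 4.01-fold difference on that scale, which draws in the changes of weak signals. The call was lost without replicate 2 (1.60, adjusted p = 0.261) and without replicate 4 (1.81, adjusted p = 0.0621), and it strengthened without replicate 3 (2.60, adjusted p = 0.00264). With the actin ratio of each sample as a covariate the difference was 1.62 (adjusted p = 0.189).

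Shown next are RefSeq promoter windows of 3 glucocorticoid-responsive genes, each 250 bases that end at the base before the transcription start, in assembly GRCr8. Fkbp5 and Arrdc2 are given because they were the list members called at 4 h in injured or sham raphe, and Fam107a because it is a brain-expressed target whose window holds the hexamer searched for (its own difference at 4 h was 0.31 and did not pass). The positions are chr20:6543556-6543805, minus strand for Fkbp5, chr16:18635633-18635882, plus strand for Arrdc2 and chr15:19046331-19046580, plus strand for Fam107a. Capitals mark TGTTCT, the core hexamer of the glucocorticoid response element, on either strand.
Fkbp5: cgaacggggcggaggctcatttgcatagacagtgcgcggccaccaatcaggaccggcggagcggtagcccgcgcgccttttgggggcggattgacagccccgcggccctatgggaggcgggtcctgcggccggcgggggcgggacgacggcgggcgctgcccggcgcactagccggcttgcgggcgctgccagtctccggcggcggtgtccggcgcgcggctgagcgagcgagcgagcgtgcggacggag
Arrdc2: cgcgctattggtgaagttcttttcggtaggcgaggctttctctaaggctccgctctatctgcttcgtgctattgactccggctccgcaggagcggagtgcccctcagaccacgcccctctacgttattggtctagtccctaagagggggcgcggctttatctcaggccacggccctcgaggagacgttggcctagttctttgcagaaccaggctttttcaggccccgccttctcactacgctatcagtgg
Fam107a: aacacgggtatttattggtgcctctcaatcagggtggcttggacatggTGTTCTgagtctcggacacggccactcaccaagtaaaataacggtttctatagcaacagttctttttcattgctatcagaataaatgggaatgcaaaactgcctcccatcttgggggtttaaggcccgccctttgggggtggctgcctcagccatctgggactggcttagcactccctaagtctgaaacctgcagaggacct
The hexamer TGTTCT, read on both strands (AGAACA on the other), was in 17.5% of all 33469 promoter windows of this length. Among the 24 tested glucocorticoid-responsive genes 22 were matched to a window, and 2 of these 22 held it, Fam107a at 202 to 197 bases before the start and Sult1a1. The full palindromic element, the hexamer preceded by its reverse complement at a distance of 3 bases, was in 4 of the 33469 windows (0.012%) and in none of the 22 genes. These letters are a description of the window only.

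Fkbp5 was also high at 4 h after sham surgery. The sham samples had signals of 772 and 812, both above all 20 later injured samples and between the injured 4 h values. Sham at 4 h was 2.07 ± 0.45 above the later injured samples (adjusted p = 0.0342, n = 2 and 20), and injured minus sham at 4 h was -0.07 ± 0.55 (adjusted p = 0.97, n = 3 and 2), an error too wide to call the levels equal. Without either sham sample the first of these was no longer called (2.04 and 2.11, adjusted p = 0.347 and 0.164). These comparisons share their samples, so they are given side by side. By 24 h the signal of Fkbp5 in injured raphe was 254 to 362, with all 4 samples close together. It was 75.7 to 193 at 7 d, 153.0 to 219 at 14 d, 114 to 303 at 28 d and 18.8 to 166 at 3 months, and the ranges of neighbouring times from 7 d on overlapped. The difference between 4 h and 24 h alone, 1.24, did not pass (adjusted p = 0.34). Naive raphe, from rats without surgery, had 95.2 to 137 in 3 samples on this array type. Sham raphe at 24 h had 96.3 and 151, below all 4 injured samples of that time, a difference that was not tested.

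A second Fkbp5 probe set, rc_AA998258_at on type B, is independent in its arrays but not in its RNA. Its signal was weaker, 160.3, 66.5 and 259.8 at 4 h and 8.05 to 122 later, with 143 and 247 in the sham samples. Replicate 3 was again the lowest of the 3. The 4 h minus later difference was 1.24 ± 0.32 and did not pass (adjusted p = 0.0853). On this probe set 0 of the 20 later samples and 2 of the 3 at 4 h exceeded the antisense controls, so the later level is at background and the size is uncertain. Sham minus later was 1.56 ± 0.38 (adjusted p = 0.06), with the same limit.

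**Figure D1:**
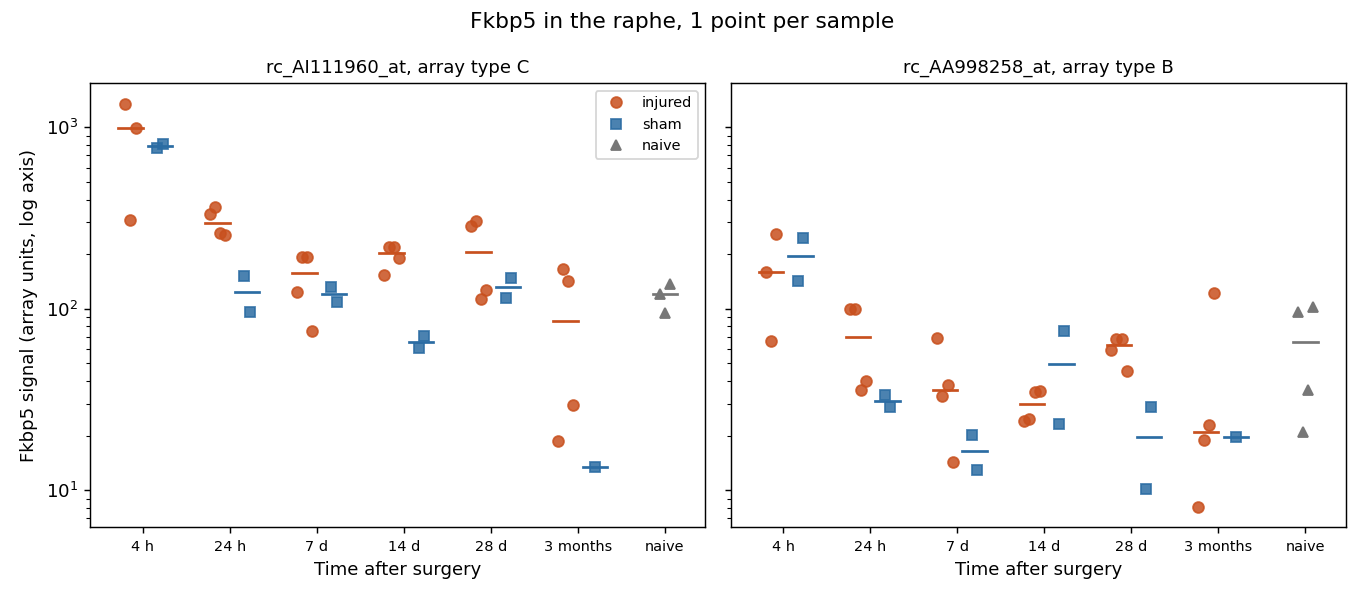
Fkbp5 signal (array units, log axis) in each raphe sample by time after surgery for its probe sets on array types C and B. Circles are injured samples, squares sham samples and triangles naive samples, with a line at each group's median. At 4 h on type C the injured samples sit at 310.0, 994 and 1352 and the sham samples at 772 and 812.

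The other glucocorticoid-responsive genes were mostly on the same side, without passing the test. Of 34 genes on the list, chosen with earlier results of these data known, 24 were tested: 1 rose (Fkbp5) and 0 fell (9 with an unadjusted p under 0.05 in limma). Of all 9238 genes, counted in the same way, 1 rose and 2 fell (1268 with an unadjusted p under 0.05). By probe set, 21 of 18769 were called in all (0.112%). The difference was positive in 21 of 24 members, with a median of 0.30, against 51.3% positive and a median of 0.01 over all 9238 genes. In sham at 4 h against the later injured samples, 22 of 24 were positive and 2 rose (Fkbp5 and Arrdc2), with a median of 0.42. Over all genes 54.2% were positive there, with a median of 0.03, and 16 of 9238 were called higher (27 of 18769 probe sets, 0.144%).

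Targets that report receptor activity showed different spreads. Tsc22d3, which encodes GILZ, an anti-inflammatory leucine zipper protein, had signals of 3801, 3196 and 4242 at 4 h, 2990 and 2782 in sham, and 1964 to 3364 (median 2735) later. It stood 0.47 ± 0.10 above the later mean (adjusted p = 0.0654). Arrdc2, an arrestin domain gene, had 3668, 1124 and 2590 at 4 h, 2814 and 2985 in sham, and 626 to 2335 (median 1071) later. The sham samples of Arrdc2 lay above all later injured samples, as did 2 of the 3 injured ones. Its difference was 0.90 ± 0.24 at 4 h after injury (adjusted p = 0.0986) and 1.29 in sham (adjusted p = 0.041). Cebpb, a transcription factor of the acute phase and of fat metabolism, had 568, 166 and 663 at 4 h, 281 and 207 in sham, and 127 to 287 later. It differed by 0.94 ± 0.24 (adjusted p = 0.088), with sham at 0.27.

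Cdkn1a, an inhibitor of the cell cycle, was at 562, 412 and 783 at 4 h and 152 to 752 later (0.65, adjusted p = 0.19). For Pdk4, Sgk1 and Klf9, chosen after their values were seen as familiar targets, sham lay further from the later samples than injured 4 h did. Pdk4, a kinase that restrains pyruvate oxidation, differed by 0.85 in injured and 1.34 in sham. Sgk1, a kinase that regulates ion transport, differed by 0.41 and 1.07, and Klf9, a Krüppel-like transcription factor, by 0.16 and 0.61. None of these 6 differences passed the test, and of the 24 members 10 were positive in injured minus sham at 4 h, with a median of -0.10 and 0 called (2 with an unadjusted p under 0.05 in limma).

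**Figure D2:**
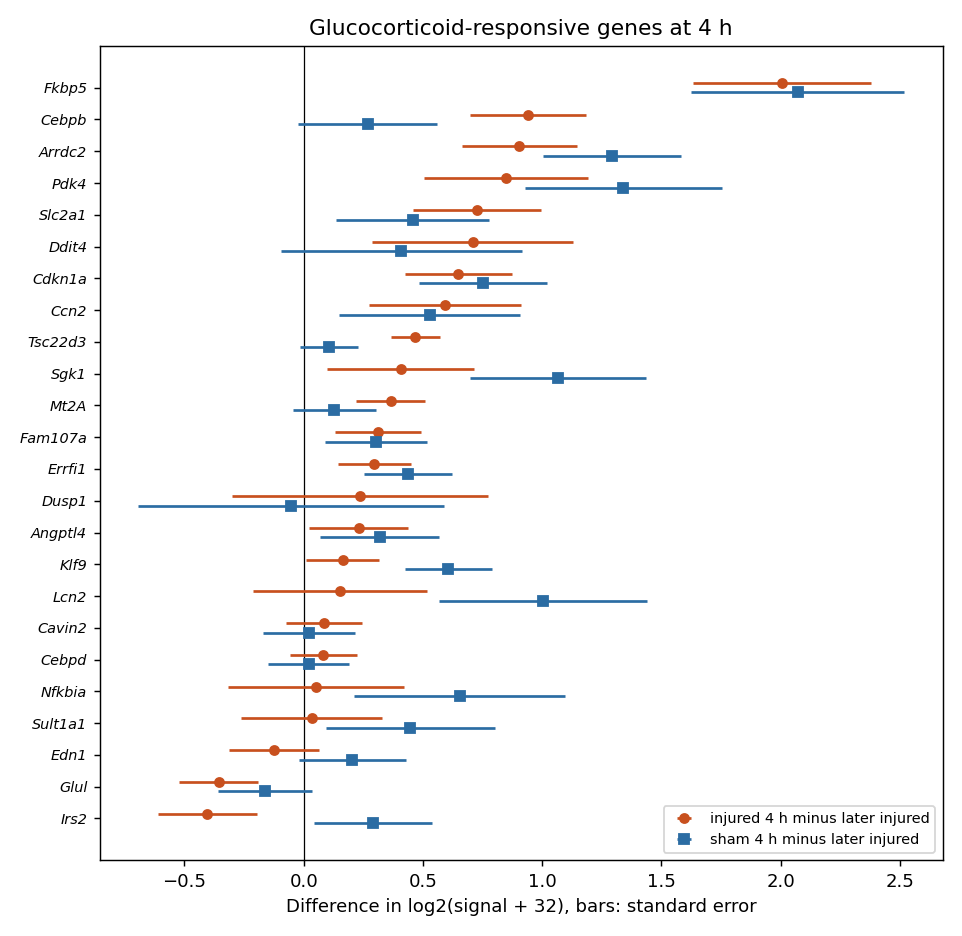
Difference in log2(signal + 32) with its standard error for the 24 tested glucocorticoid-responsive genes, ordered by the injured difference. Circles are injured 4 h minus later injured, and squares are sham 4 h minus later injured. Fkbp5 is at 2.00 and 2.07, and 21 circles and 22 squares are to the right of 0.

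The 3 injured samples at 4 h did not agree on this gene group. The mean log2 signal over the 24 members was 10.21 in replicate 2, 9.30 in replicate 3 and 10.26 in replicate 4, and the sham samples lay between replicates 3 and 2, the higher at 10.11. The later samples ran from 9.05 to 9.99: 9.70 to 9.99 at 24 h, 9.32 to 9.67 at 7 d, 9.32 to 9.74 at 14 d, 9.59 to 9.77 at 28 d and 9.05 to 9.21 at 3 months. Replicate 3 was below all 4 samples at 24 h, while replicates 2 and 4 were above every later sample. It was the lowest of the 3 for 20 of the 24 members, and for 32.1% of all 9238 genes. Above the mean of the later samples were 20 members in replicate 2, 8 in replicate 3, 21 in replicate 4, and 23 and 20 in the sham samples. Without replicate 3, 5 of 24 members rose: Fkbp5, Cebpb (1.51, adjusted p = 0.000587), Arrdc2 (1.38, adjusted p = 0.00535), Mt2A, a metallothionein (0.66, adjusted p = 0.0233), and Tsc22d3 (0.58, adjusted p = 0.0243), with a median of 0.64. Calls over all probe sets also went from 21 to 116 in that setting. Replicate 3 was the low one for these same members, so leaving it out largely fixes their rise. Nothing is read from that count or its p-values. Without replicate 2 the median was 0.18 and without replicate 4 it was 0.17, and 0 members were called in either (limma, over all probe sets 1593 and 2410 with an unadjusted p under 0.05). Replicate 3 also stood alone in Sdhb, a subunit of respiratory complex II, with 138.5 against 7634 and 8138 in the other 4 h samples and 7608 to 12840 later.

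**Figure D3:**
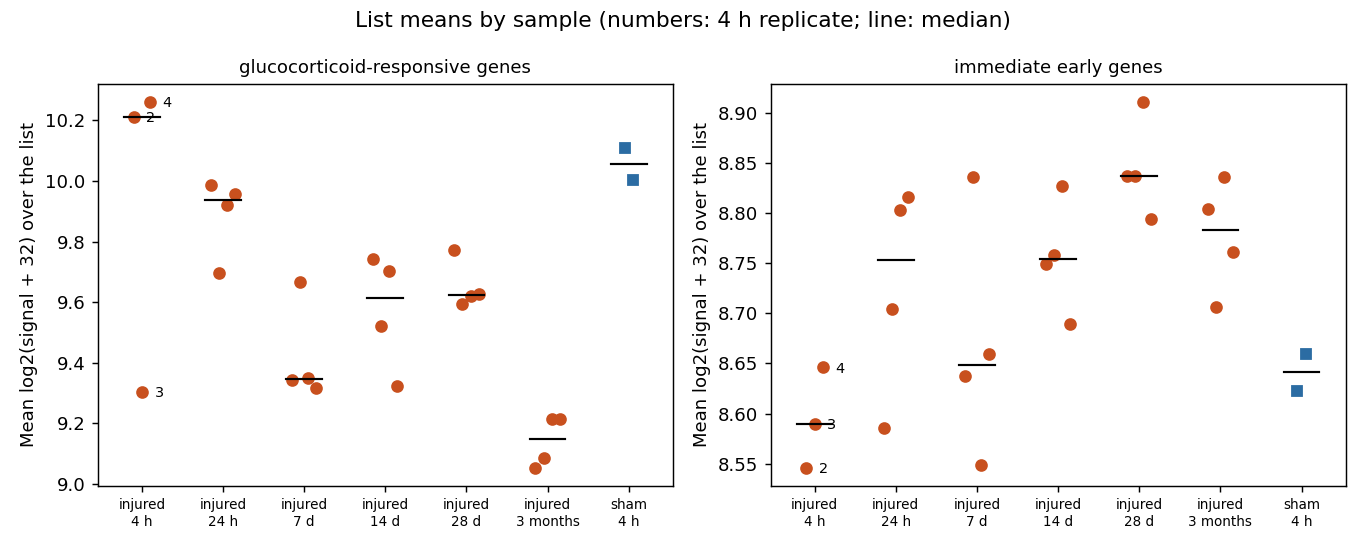
Mean log2(signal + 32) over the 24 glucocorticoid-responsive and the 27 immediate early genes tested, 1 point per sample by group, with a line at the median and the replicate number beside the injured 4 h samples. In the first panel replicate 3 is at 9.30 and the other injured 4 h samples are at 10.21 and 10.26. In the second the 4 h samples lie between 8.55 and 8.65.

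Few probe sets passed the threshold over all genes. Of 18769 probe sets, 6 were higher (0.032%) and 15 lower (0.0799%) at 4 h than later, and 2663 (14.2%) had an unadjusted p under 0.05. With each gene taken by its probe set of highest mean signal, 3 of 9238 were called, Fkbp5 (higher), Rgma and Enpp1 (lower). The other called probe sets with a symbol were not the brightest of their gene and were named after their values were seen. Groups did not overlap, all 3 samples at 4 h above or below all 20 later ones, for 102 probe sets higher (0.543%) and 38 lower (0.202%), 0.746% in all. Among the called ones this held for 2 of 6 rises and 9 of 15 falls. The count rested on single libraries. Without replicate 2 at 4 h, 0 probe sets were called (1593 with an unadjusted p under 0.05 in limma), without replicate 3 there were 116 (16 of the 21 among them) and without replicate 4 there were 135 (11 among them). Of the later samples, leaving out replicate 2 or 4 at 24 h gave 32 and 79, replicate 1 or 3 at 7 d gave 9 each, and replicate 4 at 28 d gave 11. With the actin ratio as a covariate 3 were called, of which 2, Slc8a1 and Flt1, were among the 21.

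Beside Fkbp5 the named rises were Tle3 and Gpatch4. Tle3, a Groucho-family transcriptional corepressor, had signals of 1234, 1005 and 1239 at 4 h against 488 to 908 (median 674) later. The groups did not overlap, and the difference was 0.74 ± 0.12 (adjusted p = 0.0196). Sham samples at 1029 and 1170 also lay above all later samples (0.67, adjusted p = 0.04), and injured minus sham was 0.07 ± 0.18. Naive raphe had 908 to 1193 in 4 samples, a range that overlapped the 4 h one and lay at or above the highest later sample. For Tle3, then, the later injured samples were the low group. The other Tle3 probe sets did not move as one: rc_AI171940_at was 1.18 higher (adjusted p = 0.0859), rc_AA963862_at 0.23 higher and rc_AA943427_at differed by -1.01 (adjusted p = 0.078). Gpatch4, a G-patch domain protein gene, had 2216, 758 and 1464 at 4 h and 286 to 1617 (median 647) later, and differed by 1.06 ± 0.20 (adjusted p = 0.0362). It was 0.09 higher at 4 h than at 24 h (adjusted p = 0.93). Naive raphe had 389.8 to 614 for Gpatch4, below all 3 samples at 4 h. The other Gpatch4 probe sets were 1.34-fold and 1.05-fold higher at 4 h than later. The 3 rises without a gene symbol differed by 1.69 (rc_AA942745_at), 1.10 (rc_AI235359_at) and 0.94 (rc_AI105421_at). Of these, rc_AI105421_at was also higher in injured than in sham at 4 h (1.07, adjusted p = 0.044). The same injured samples chose this rise and enter that comparison, so it is no separate support.

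All 15 falls had lower signals in injured 4 h than in sham 4 h, 5 of them past the threshold, beside 136 of 18769 probe sets called in that comparison (0.725%). The same injured samples chose these falls and enter that comparison, so the choice largely fixes their direction and nothing is read from the count. In sham at 4 h against the later injured samples 0 of the 15 were called (limma), beside 0.618% of all probe sets, a share at which a count of 0 is no result about the falls. The median difference there was -0.0033, and Wnk1 came nearest to a call (-0.85, adjusted p = 0.051).

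Rgma, a cell-surface repulsive guidance molecule that restrains axon growth through neogenin, had 2493, 1432 and 2638 at 4 h. Sham samples were at 3598 and 3819 and later samples at 3038 to 5423 (median 3506), so all 3 injured 4 h samples lay below every other sample. The difference from later was -0.78 ± 0.14 (adjusted p = 0.0302) and from sham -0.80 ± 0.20 (adjusted p = 0.064). Without replicate 3 the Rgma difference was -0.50 (adjusted p = 0.0722), without replicate 2 it was -0.89 (adjusted p = 0.0865), and with the actin ratio as a covariate it was -0.73 (adjusted p = 0.109). Enpp1, an ectoenzyme that cleaves extracellular ATP, had 52.9, 73.8 and 53.0 at 4 h, 197 and 162 in sham, and 83.6 to 185 (median 136) later. Here too the groups did not overlap, with -0.84 ± 0.14 against later (adjusted p = 0.0196) and -1.21 ± 0.20 against sham (adjusted p = 0.0198). None of the 3 values at 4 h exceeded the median of the antisense control probe sets of its array, so the size of the Enpp1 fall is uncertain.

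Slc8a1, the sodium and calcium exchanger NCX1, had 76.2, 38.9 and 114 at 4 h, 275 and 284 in sham, and 134 to 231 (median 181) later. It was lower by -1.05 ± 0.15 against later (adjusted p = 0.00707) and by -1.59 ± 0.22 against sham (adjusted p = 0.0023). Of its 3 values at 4 h, 1 exceeded the antisense controls, so the size of this fall is uncertain too. Its brighter probe sets gave -0.76 (X68812_s_at) and 0.13 (rc_AI007725_at), neither called. Flt1, the VEGF receptor 1 of vessels, had 169, 142 and 55.5 at 4 h, 348 and 475 in sham, and 175 to 529 (median 329) later. Its difference was -1.29 ± 0.22 against later (adjusted p = 0.0196) and -1.60 ± 0.32 against sham (adjusted p = 0.031), while its other probe sets gave -0.37 and 0.32. The Flt1 call against later was lost without replicate 2 (-1.53, adjusted p = 0.0546) and without replicate 4 (-0.93, adjusted p = 0.0537). Its signal in replicate 4 was weak, so the size of the Flt1 fall is uncertain. Erbb3, a neuregulin receptor found in the oligodendrocyte lineage, had 183, 233 and 166.5 at 4 h against 262 to 523 later and differed by -0.76 ± 0.14 (adjusted p = 0.0362). Wnk1, a kinase that controls chloride cotransporters, differed by -0.85 ± 0.17 (adjusted p = 0.043). Of its other probe sets, the much brighter rc_AI227938_at was 1.19-fold lower and the weaker rc_AI011345_at 1.22-fold higher. The sham samples of Wnk1 were low too, with sham minus later at -0.85 (adjusted p = 0.051) and injured minus sham -0.01.

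Ccnd1, cyclin D1, had 176.5, 159.7 and 136 at 4 h against 234 to 447 later (-0.90 ± 0.16, adjusted p = 0.0317). The 4 other Ccnd1 probe sets, all brighter, differed by only -0.02, -0.03, -0.16 and -0.24. Rabgap1, a GTPase-activating protein of Rab proteins, had 1074, 1259 and 1111 at 4 h against 1489 to 2543 later and 2134 and 1986 in sham, with no overlap (-0.69 ± 0.13, adjusted p = 0.0362, and -0.83 against sham, adjusted p = 0.046). A brighter Rabgap1 probe set differed by 0.20. Dnajb2, a neuronal co-chaperone, differed by -0.99, Ptbp1, a splicing repressor, by -0.96, Mllt10, a partner of a histone methyltransferase, by -0.88 and Prp2l1, of a proline-rich protein family whose copies the probe set may not separate, by -1.09. The other probe sets of Dnajb2 gave 0.15, 0.16 and -0.10, and those of Ptbp1 ran from -1.08 to 0.29. These calls were lost in 22 of 40 alternative settings for Dnajb2 (-0.57 without replicate 3 at 4 h), 23 of 40 for Ptbp1, 26 of 39 for Mllt10 (-0.56 without replicate 2) and 24 of 39 for Wnk1 (-0.57 without replicate 4). Prp2l1, Mllt10 and rc_AI176169_at had no 4 h value above the antisense controls, so the sizes of their differences are uncertain. Of the 21 called probe sets, 14 had all their 4 h values above these controls and 4, Enpp1 among them, had none. A brighter Mllt10 probe set was 1.08-fold lower, and a brighter Prp2l1 probe set was 1.04-fold higher. The falls without a symbol were rc_AA901183_at (-1.65), rc_AI176169_at (-1.32) and rc_AI137439_at (-0.77). Of the 15 genes called by any probe set, 14 had 29 other probe sets: 20 had the same sign, however small the value, and 9 the opposite, and 0 were called (9 of the same sign had an unadjusted p under 0.05 in limma).

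**Figure D4:**
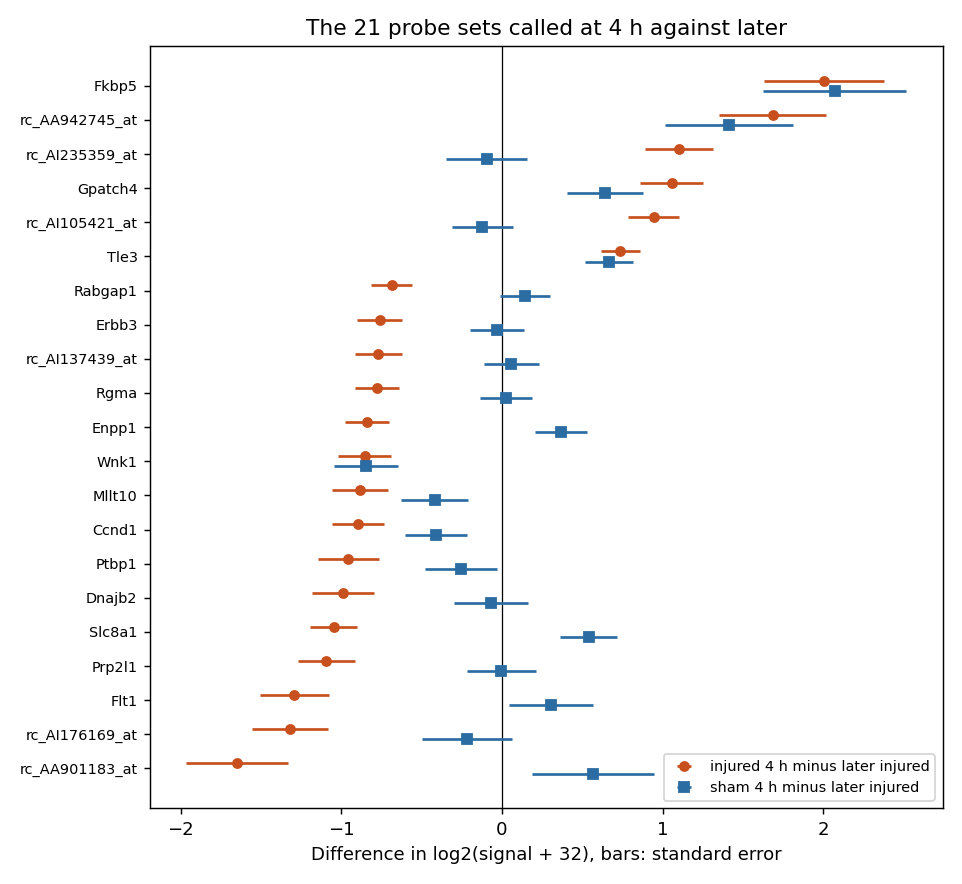
The 21 probe sets called at 4 h against later, with their difference in log2(signal + 32) and its standard error for injured 4 h (circles) and sham 4 h (squares), each against the later injured samples. Fkbp5 and Tle3 have both marks at like distances to the right, and the falls have circles between -1.65 and -0.69, while their squares have a median of -0.0033.

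Against 24 h alone, the nearest later time, 6 of 18769 probe sets were called (0.032%), 0 higher and 6 lower, with 1112 higher and 961 lower at an unadjusted p under 0.05 in limma. Prp2l1 (-1.27), Slc8a1 (-1.06) and rc_AI176169_at (-1.61) were called in both comparisons, which share all of these samples. In Pla1a and Mobp the 24 h samples were the high group. Pla1a, a phospholipase specific for phosphatidylserine, had signals of 43.5 to 96.7 at 4 h, 156.0 to 230.0 at 24 h and 24.5 to 82.8 from 7 d to 3 months (-1.31 ± 0.23 against 24 h, adjusted p = 0.0405). None of the 3 values of Pla1a at 4 h exceeded the antisense controls, so the size is uncertain. Mobp, a myelin protein gene, had 9693 to 12120 at 4 h, 19070 to 29850 at 24 h and 10660 to 15730 later on (-1.02 ± 0.16, adjusted p = 0.0267), with 12760 and 15740 in sham at 24 h. Ints14, a subunit of the Integrator complex, differed by -1.77 (adjusted p = 0.0405), with 1 of its 3 values at 4 h above those controls. It had 41.8 to 121 at 4 h, 171 to 460 at 24 h and 34.9 to 302.5 from 7 d to 3 months. Its 24 h range thus overlapped that of the times after it. Mobp and Ints14 were named after their values were seen. Without replicate 2 at 4 h or replicate 2 at 24 h, 0 probe sets were called (1645 and 1664 with an unadjusted p under 0.05), without replicate 1 or 3 at 24 h 1 and 2, and without replicate 4 at 24 h 40.

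In injured against sham at 4 h, 110 probe sets were higher (0.586%) and 26 lower (0.139%). By single genes 46 rose and 12 fell of 9238. The largest rises were Alg9, a mannosyltransferase of N-glycan assembly (1.78 ± 0.41, adjusted p = 0.0444), Znhit3 (1.60), Rab1a, a GTPase of transport from the endoplasmic reticulum (1.51), Usp33, a deubiquitinase (1.48), and Lyn, a Src-family kinase of microglia and blood cells (1.47, adjusted p = 0.0307). Alg9 had 353, 357 and 303 at 4 h after injury, 76.6 and 74.9 in sham, and 49.3 to 280.4 later. Lyn had 111, 231 and 208 after injury, 51.8 and 35.7 in sham, and 66.2 to 256 later, so sham was the low group, and injured 4 h differed from later by 0.03. The weak sham signals of Alg9 and Lyn were not set against the antisense controls, so the sizes of differences that involve them are uncertain. The largest falls were Eif4ebp2, a repressor of translation (-1.28), Enpp1 (-1.21), Lzts2 (-1.19), C12h7orf50 (-1.15) and Aldoc, the aldolase of astrocytes (-1.15, adjusted p = 0.0306). Aldoc had 40350, 51830 and 39940 at 4 h, 90440 and 103400 in sham, and 52560 to 101700 later, without overlap between injured 4 h and either group. Without replicate 2, 3 or 4 of the injured 4 h samples 22, 9 and 23 probe sets were called, and without sham replicate 2 there were 36. Of the 10 genes named, 9 lost their call without at least 1 library, Enpp1 being the exception. Usp33 moved to 0.87 (adjusted p = 0.438) without sham replicate 2.

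Sham at 4 h against the later injured raphe called 27 probe sets higher (0.144%) and 89 lower (0.474%), 0.618% in all, and 46 in all without sham replicate 2. After Fkbp5, the largest rises by gene were Smcp (1.80), Gpd1, a glycerol phosphate dehydrogenase that glucocorticoids are known to raise in oligodendrocytes (1.59 ± 0.27, adjusted p = 0.00823), P3h1 (1.54) and Mrpl41, a mitochondrial ribosomal protein gene (1.35 ± 0.16, adjusted p = 0.000326). Gpd1 had 13350 and 17050 in sham, 11590, 3540 and 9689 in injured 4 h and 3336 to 14320 later, and injured 4 h differed from later by 0.56 (adjusted p = 0.256). Replicate 3 was the low one here as well. The largest falls of sham were Eva1b (-1.90), Dlgap4, a postsynaptic scaffold gene (-1.55), Pdia4, an endoplasmic reticulum disulfide isomerase (-1.48), Lyn (-1.44) and Ankrd34b (-1.35). Pdia4 was also low after injury at 4 h, with 222, 359 and 741 against 331 to 1172 later (-0.89, adjusted p = 0.0759), and without replicate 4 at 4 h its difference passed (-1.32, adjusted p = 0.00555). Of the 10 genes named in sham against later, 9 lost their call without 1 of the sham samples, Mrpl41 being the exception (1.27 to 1.43). Dlgap4 moved to -0.82 (adjusted p = 0.326) without sham replicate 1.

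Immediate early genes, which neurons switch on within minutes of strong activity, lay mostly on the lower side at 4 h. Of 27 tested, 0 were called (9 with an unadjusted p under 0.05 in limma), 7 were positive and the median was -0.17. Over all 9238 genes 51.3% were positive, with a median of 0.01, and 1268 had an unadjusted p under 0.05. In sham at 4 h against later, 12 of the 27 were positive (median -0.05) and 1 was called lower, beside 33 of 9238 genes. In injured minus sham at 4 h, 10 were positive (median -0.25) and 1 was called higher, beside 46 of 9238 genes. The list mean was 8.55 to 8.65 at 4 h, 8.62 to 8.66 in sham and 8.55 to 8.91 later, so the ranges overlapped. Fos had 892, 1203 and 563 at 4 h against 821 to 1586 (median 1211) later (-0.46 ± 0.17, adjusted p = 0.2). Nr4a1, an orphan nuclear receptor, differed by -0.63 (adjusted p = 0.142), Klf2 by -0.57 (adjusted p = 0.175) and Klf4 by -0.61 (adjusted p = 0.25).

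By the probe set of highest mean signal per gene, lists of glial, vascular and immune markers gave no call at 4 h against later. Flt1, on the endothelial list, was called only on a probe set that was not its brightest. Endothelial and pericyte markers were positive in 7 of 21 (median -0.09, 5 with an unadjusted p under 0.05 in limma). Astrocyte markers were positive in 7 of 16 (median -0.08, also 5). Microglia and macrophage markers were positive in 2 of 17 tested (0 called, 2 with an unadjusted p under 0.05 in limma), with a median of -0.12, and their list mean was 9.30 to 9.57 at 4 h, 9.61 to 9.73 in sham and 9.33 to 9.83 later. Tyrobp, a microglial signalling adaptor, had 548, 114 and 809 at 4 h against 509 to 1176 later (-1.01 ± 0.30, adjusted p = 0.125), and without replicate 3, the low one, it differed by -0.26. Without replicate 4 it fell, by 1.53 (adjusted p = 0.0242). Cx3cr1, the fractalkine receptor, differed by -0.54 (adjusted p = 0.22). Of the other members named by the rule, Csf1r was 1.17-fold lower and Laptm5 1.23-fold higher. In bulk tissue fewer cells of a type and less RNA per cell cannot be told apart. Cytokine, chemokine and acute phase genes were positive in 9 of 29 (median -0.07, 0 called, 3 with an unadjusted p under 0.05), with Serpina3n at -0.40 and Cd14 at -0.38. Of the other members named by the rule, Ccl4 was 1.5-fold lower and Il4r 1.59-fold higher. Aspa, the aspartoacylase of oligodendrocytes, was the member nearest a call among the marker lists, with 1407, 612 and 1175 at 4 h, 599 and 429 in sham and 287 to 774 later (1.17 ± 0.24, adjusted p = 0.0555). The 19 myelin and oligodendrocyte genes as a list had a median of 0.004 with 10 positive (7 with an unadjusted p under 0.05). Of the other members named by the rule, Olig2 was 1.72-fold lower, Tf 1.47-fold lower and Mog 1.21-fold higher. Kcnj10, the inward rectifier potassium channel of glia, was named from the ion channel list and is on none of the marker lists. It had 109, 110.5 and 40.6 at 4 h against 93.5 to 264 later (-0.93 ± 0.21, adjusted p = 0.0654). These signals are weak, so the size is uncertain.

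Serotonin and monoamine genes were spread around 0, with 13 of 25 positive, a median of 0.02 and 0 called (3 with an unadjusted p under 0.05 in limma). Ddc, which makes serotonin and dopamine from their precursors, had 1323, 1389 and 1478 at 4 h, 1250 and 704 in sham and 651 to 1391 (median 899) later (0.64 ± 0.16, adjusted p = 0.0859). The other members named by the rule went the other way: Pts was 1.42-fold, Htr5a 1.27-fold and Maob 1.22-fold lower. Axon growth and regeneration genes were positive in 12 of 43, with a median of -0.10 and 0 called (6 with an unadjusted p under 0.05). Among them Klf7 differed by -0.47 (adjusted p = 0.15) and Bdnf, a neurotrophin, by -0.70 (adjusted p = 0.16). Ccnd1, also on this list, was called only on a probe set that was not its brightest. Heat shock genes (median -0.03 of 25), unfolded protein response genes (median 0.02 of 28) and hypoxia and glycolysis genes (0.07 of 27) stayed near the median of all genes, 0.01.

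Material from outside the raphe varied between samples. Ttr, transthyretin, the defining transcript of choroid plexus, had 25330, 16720 and 8038 at 4 h, 27580 and 380.1 in sham, and 118 to 52950 (median 945) later (3.02 ± 1.43, adjusted p = 0.34). The list mean of 9 choroid plexus and ependyma markers was 8.87 to 9.37 at 4 h and 7.47 to 11.22 later. Of the 9, 7 were positive, with a median of 0.07 and 0 called (1 with an unadjusted p under 0.05 in limma). Among the other members named by the rule, Cldn2 was 1.75-fold higher, Kl 1.28-fold lower and Prlr 1.25-fold lower. The part of such material in the other differences was not tested.

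The change from 4 h to later was set beside that of injured cortex, with 4 samples at 4 h and 19 later. Fkbp5 in cortex had 1160 to 1660 at 4 h against 137 to 623 later, without overlap. Its change was 2.00 in raphe and 1.97 in cortex, and the difference between the regions was 0.04 ± 0.44 (adjusted p = 0.99). The second probe set, rc_AA998258_at, differed between 4 h and later by 1.24 in raphe and 0.60 in cortex, where 102 to 189 at 4 h overlapped 12.6 to 164 later. It did not pass the filter of the region comparison, and the later samples of both regions were at background on it. The regions differed for 12 of 19762 probe sets (0.0607%), 6 in each direction (0.0304% each). Egr1, an activity-induced transcription factor, had 1425 to 1819 at 4 h in cortex against 3445 to 7441 later, without overlap, while in raphe it had 395 to 478 against 308 to 858. Its region difference was 1.30 ± 0.22 (adjusted p = 0.00488), and a second Egr1 probe set gave 1.26. Mrpl41 differed between 4 h and later by 1.68 in cortex and by 0.47 in raphe, a difference of -1.22 ± 0.17 (adjusted p = 0.00031). In raphe Mrpl41 was at 4133, 2393 and 4160 in replicates 2, 3 and 4 of injured 4 h and at 1804 to 3112 later. Col5a1, a fibrillar collagen gene, differed by -0.57 in raphe and 0.39 in cortex, and its region difference was -0.96 (adjusted p = 0.0326). Leaving out 1 of the 46 samples at a time gave between 3 and 77 such probe sets: 21 and 77 without raphe 4 h replicate 3 or 4, 31 without raphe 24 h replicate 2, 6, 6 and 3 without cortex 4 h replicates 1, 3 or 4, and 24 to 40 without cortex 24 h replicate 1, 7 d replicate 3, 14 d replicate 3 or 28 d replicate 4.

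**Figure D5:**
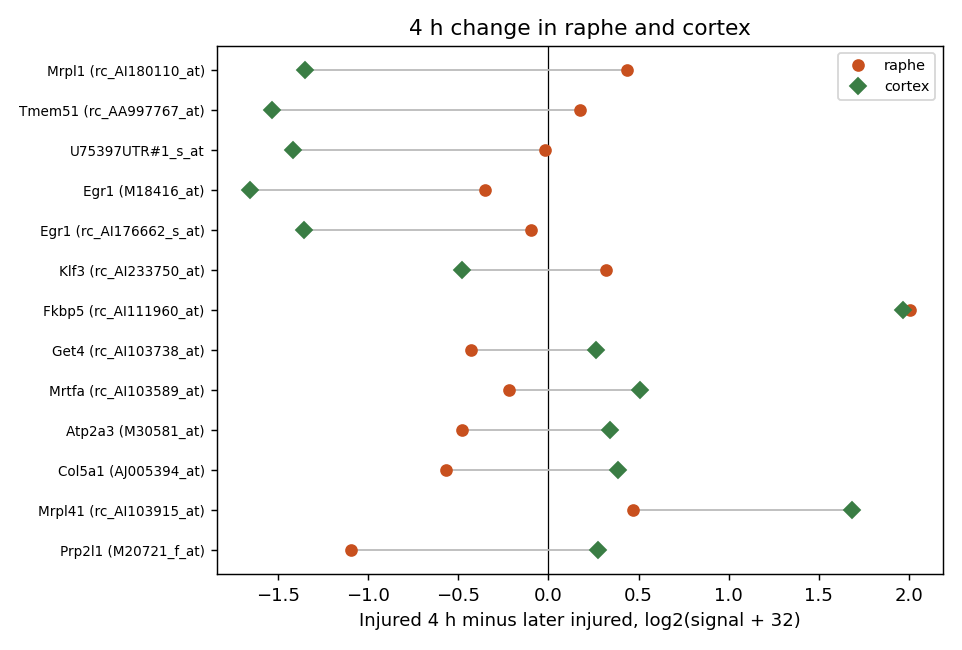
Injured 4 h minus later injured, in log2(signal + 32), in raphe (circles) and cortex (diamonds) for the 12 probe sets whose change differed between the regions and for Fkbp5. A line joins the marks of a probe set. The marks of Fkbp5 lie at 2.00 and 1.97, and those of Egr1 (M18416_at) at -0.35 and -1.65.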

How the data were processed

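RNA was measured on Affymetrix RG-U34 arrays of types A, B and C. The deposited values are intensity values, 1 per probe set, on a linear scale. The software and version that made them are not given in the sources used here. Per the files, each array's mean trimmed by 2% at each end was 800.5 to 801.3, so arrays had been scaled to a common level by the authors, with medians of 185.8 to 389.4. Their number limits the precision. Affymetrix control probe sets were left out. Of 26202 others, 18178 had 1 gene symbol in the platform annotation, 391 several and 7633 none.

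Values were taken as log2(intensity + 32). Probe sets were tested where 2 or more arrays of the fit had a value above that array's 40th percentile. Within each array type, group means were fitted with limma 3.58.1 (lmFit, eBayes, R 4.3.3, statmod 1.5.0), the later side being the mean of 5 group means, and p-values were adjusted by Benjamini-Hochberg over the 3 types together, with 0.05 as the threshold. The script was tested on simulated data. Groups followed the sample titles, also where a description disagreed. Raphe injured 4 h replicate 1 (actin 3' to 5' ratios of 29.1, 46.2 and 93.3 on types A, B and C), raphe sham 3 months replicate 1 and cortex injured 7 d replicate 2 were left out.

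A gene was named by its probe set of highest mean: up to 15 largest called rises and falls in the first comparison, 5 in the others (where fewer than 5 genes passed, those and the 5 smallest p), up to 4 members of each of 29 gene lists with the smallest p, and Fkbp5. The samples and lists were chosen with earlier results of these data known. Samples were not treated as paired by replicate number. The 16 same-numbered pairs had a median correlation of deviations of 0.02, with 2 above 0.1. The 50 differently numbered pairs had a median of -0.009, also with 2 above 0.1. These correlations cannot show whether samples of the same number share an animal or a batch. Alternatives covered normalization, filter, added value, array weights, a replicate block, adjustment, an intensity trend, the actin ratio, the later times and each sample left out in turn.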

Additional observations from a re-analysis of the deposited data

Results flagged for a closer look

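In Ptbp1 (rc_AA900425_s_at), the raphe injured 28 d replicate 4 had a signal of 1072 while the other 3 samples of its group had 787.2 to 818.7. It was the 1 sample far from its group in 105 groups of 4 examined over the 21 called probe sets, and chance gives about 1 in 20.

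The change from 4 h to later differed between raphe and cortex, by a test of the difference itself in limma, for 12 probe sets. Raphe minus cortex was positive for Mrpl1 (1.78), Tmem51 (1.71), U75397UTR#1_s_at, which has no gene symbol (1.40), Egr1 (1.30 for M18416_at and 1.26 for rc_AI176662_s_at) and Klf3 (0.80). It was negative for Prp2l1 (-1.37), Mrpl41 (-1.22), Col5a1 (-0.96), Atp2a3 (-0.82), Mrtfa (-0.73) and Get4 (-0.69). In Mrpl1 the cortex samples had 19.2 to 31.8 at 4 h and 17.0 to 302 later, while raphe had 143 to 171 and 34.7 to 283. In Tmem51 the cortex samples had 44.4 to 86.5 at 4 h and 57.7 to 409 later, and raphe had 285.0 to 490 and 145 to 513. On both of these probe sets 0 of the 4 cortex samples at 4 h exceeded the antisense controls, so the sizes are uncertain. The same holds for Prp2l1 in raphe, with 0 of 3 at 4 h.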

How the results depend on the processing

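Calls at 4 h against later (21) came to 9 without a filter, 70 with the 60th percentile filter, 4 with array weights, 89 with adjustment within each array type, 51 with an intensity trend, 342 with 4 h replicate 1 kept, 3 with the actin ratio, and 49, 49 and 8 with later times lacking 24 h, 28 d or 3 months. Against 24 h (6) they came to 0 without a filter (2451 with an unadjusted p under 0.05 in limma), 1 with the 60th percentile, 1 with the larger added value, 3 with weights, 1 with a trend, 2 with replicate 1 kept, 3 with all raphe groups and 0 with the actin ratio (1930). Against sham (136) they came to 55 without a filter, 213 within types, 14 with replicate 1 kept and 31 with the actin ratio. Sham against later (116) gave 75 with the 60th percentile, 183 with weights and 29 with replicate 1 kept. The region difference (12) gave 5 with quantile normalization, 34 with the 60th percentile, 33 with the larger added value, 39 with weights, 31 within types, 33 with a trend, 39 with replicate 1 kept, 1 with the actin ratio and 19 without the cortex arrays of conflicting labels. The replicate block gave 6 (all among the 21), 0 (1977 unadjusted), 10, 60 and 7 in the same order, and Fkbp5 then differed by 1.97 (adjusted p = 0.0533). Leaving out 1 sample gave 0 to 135, 0 to 40, 9 to 149, 46 to 159 and 3 to 77. The cause was not tested. Ddc and Sgk1 turned to -0.26 and -0.32 with replicate 1 kept, and Klf9 ran from -0.0761 (without 4 h replicate 2) to 0.48 (without 4 h replicate 3). Fkbp5 kept its direction in the 40 alternatives run, but its call was lost in 11: the replicate block, the actin ratio, no filter, the smaller added value, array weights, later times without 3 months, and without 4 h replicate 2 or 4, 7 d replicate 1 or 3 or 28 d replicate 4. With 3 and 2 samples at 4 h, and signals near the antisense controls for part of the falls, small differences were not detectable.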
